A study of Mus musculus with 26 samples.

Results

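Partial hepatectomy (PHx), the surgical removal of part of the liver, was compared with sham surgery in whole livers of C3H/HeN mice, over every gene measured by RNA sequencing. The comparison used 6 of the 26 libraries of the series: 3 sham libraries labelled 0 h and 3 libraries labelled 48 h after PHx. All mice were 8 to 10 weeks old, fed ad libitum and kept under a standard light and dark cycle, and the labels name no transgene, deletion or drug for them. The amount of liver removed, the sex of the mice and the hour of day at which livers were taken are not given in the sources used here. No sham library labelled 48 h was analysed here, so the loss of tissue and the 48 h that followed the operation cannot be told apart. Nothing beyond the titles says that replicates were separate mice, so p-values measure the spread between these samples. In the text the libraries are called sham 1 to 3 and hepatectomy 1 to 3.

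After PHx the remaining lobes regain their mass mainly because resting hepatocytes, the main cells of the liver, enter the cell cycle and divide. The remnant must meanwhile go on holding blood glucose, disposing of nitrogen, secreting plasma proteins and bile, and clearing drugs. Surgery also evokes the acute-phase response, in which cytokines such as interleukin-6 drive hepatocytes through the factor Stat3 to secrete defence proteins. The functions that moved beside the cell cycle are the subject here.

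Each library held 31291848 to 35481559 reads assigned to genes. Levels are given as CPM (counts per 1000000 reads in genes), with library sizes adjusted by edgeR's TMM factors. The libraries read as liver: hepatocyte markers made up 12.3% to 12.8% of gene counts in the sham livers and 10.9% to 11.8% after PHx. Summed markers of the other cell types were small. The 14 Kupffer cell and macrophage markers, genes of the resident and recruited phagocytes, took 0.0196% to 0.0320% of gene counts in sham and 0.0282% to 0.0439% after PHx. The 14 stellate cell and fibroblast markers took 0.0290% to 0.0384% and 0.0370% to 0.0410%, and the 12 markers of sinusoidal endothelium 0.0317% to 0.0469% and 0.0386% to 0.0399%. The 8 neutrophil markers took 0.000114% to 0.000188% and 0.000214% to 0.000555%. As shares of gene counts, the first 3 of these sums overlapped between the groups and the neutrophil sum did not. The exact two-sided permutation test of these shares, which cannot go below p = 0.1 with 3 against 3, gave p = 0.3, 0.3, 0.8 and 0.1 in that order. As TMM-adjusted CPM the neutrophil sums overlapped too, at 1.9925, 1.7933 and 1.2338 in sham and 2.215, 1.9752 and 5.3086 after PHx. In bulk liver, fewer cells of a type and less RNA per cell cannot be told apart.

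**Figure D1:**
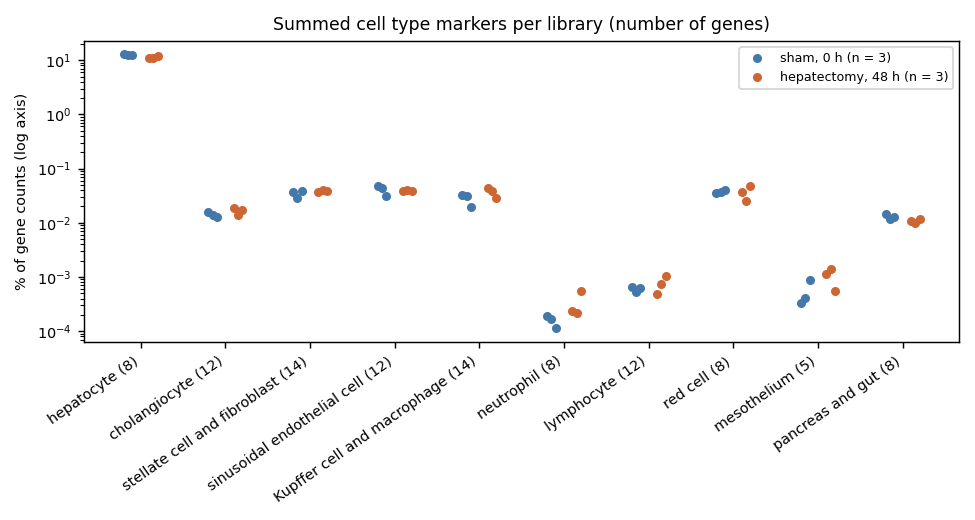
Summed levels of cell type markers in each library, as a percent of gene counts on a log axis; points are single libraries and the number of genes is in brackets. Hepatocyte markers took 10.9% to 12.8% in all 6 libraries, and every other type took a far smaller share.

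One library, hepatectomy 3, stood apart in the genes of the circadian clock. Arntl, whose protein BMAL1 drives the clock with CLOCK, measured 1.34, 0.598 and 0.788 CPM in the sham livers and 0.933, 0.914 and 19.7 CPM after hepatectomy. Dbp, a clock output factor, measured 135, 106 and 114 CPM in the sham livers and 88.0, 70.8 and 4.65 CPM after hepatectomy, and Nr1d1, the clock repressor REV-ERB alpha, measured 50.4, 16.9 and 18.5 CPM in the sham livers and 39.0, 16.1 and 1.63 CPM after hepatectomy. Hepatectomy 3 thus had the highest Arntl and the lowest Dbp and Nr1d1, while hepatectomy 1 and 2 lay near or within the sham range for Arntl and Nr1d1. Over the 25 clock genes tested, hepatectomy 3 was the highest or the lowest of the 6 libraries for 20. The other libraries were the highest or lowest for 3 to 7 clock genes each, and over all tested genes hepatectomy 3 was so for 40.1% and the others for 28.0% to 36.6%. Dbp was at a log2 change of -1.12, SE 0.76, adjusted p = 0.304 over all libraries and at -0.58 without hepatectomy 3 (adjusted p = 0.0143). Where leaving out hepatectomy 3 changed a call, or moved a fold change or a count of at least 4 genes by over 1.5 times, the value without it is given.

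**Figure D2:**
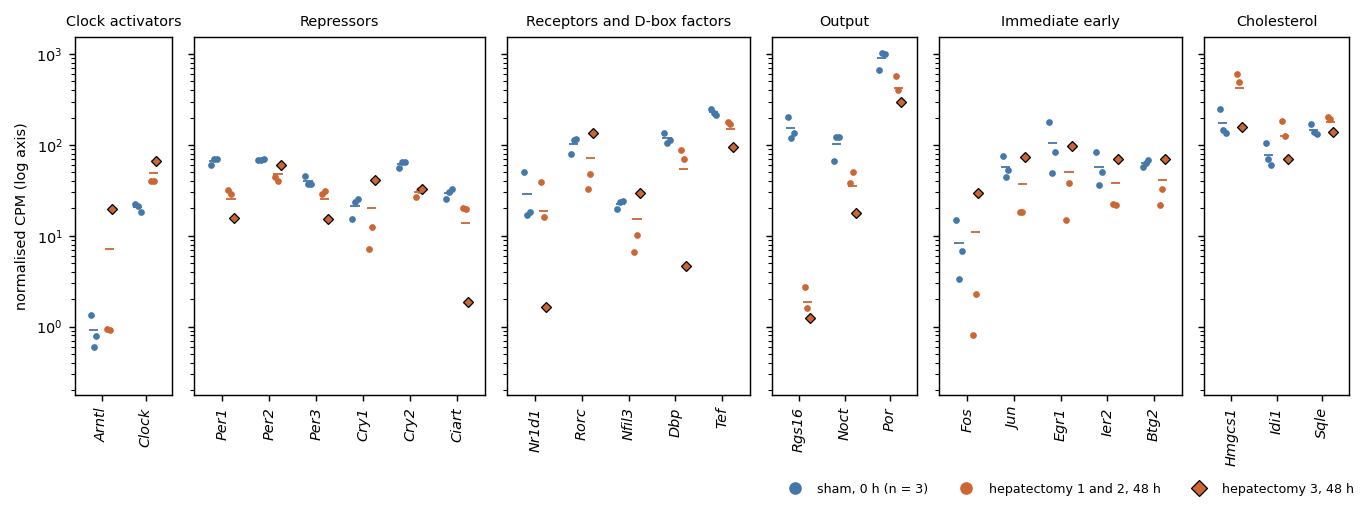
Normalised CPM (log axis) of clock, immediate early and cholesterol synthesis genes; points are single libraries, diamonds mark hepatectomy 3 and short lines are group means. Hepatectomy 3 sits above the other libraries for Arntl and below them for Nr1d1, Dbp and Ciart, and near the sham libraries for Jun, Btg2 and Hmgcs1.

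The comparison covered 13753 genes with enough reads. By edgeR's quasi-likelihood test with Benjamini-Hochberg adjustment at 0.05, 2256 genes rose (16.4%) and 1969 fell (14.3%) after PHx, 30.7% in all. The counts were 1443 and 1111 without sham 2, and 1462 and 1113 without sham 3. Leaving out hepatectomy 3 gave 2189 and 2028. The median log2 change over all tested genes was 0.014. Among the 13473 genes outside a list of cell cycle genes, 1995 rose (14.8%) and 1968 fell (14.6%). The rises were larger than the falls there: 756 rose by a log2 of at least 1 and 394 fell by at least that much, with median log2 changes of 0.80 and -0.58. Some of the largest rises there, such as those of Ercc6l and Mastl, are of genes with known roles in cell division that the list lacks. These counts therefore do not leave out cell division wholly. The share called over all genes, 16.4% up and 14.3% down, is the background for the list counts of the fit to all 6 libraries below. List counts given for a fit without a library have that fit's own background, which was lower without sham 2 or sham 3, as the totals above show.

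**Figure D3:**
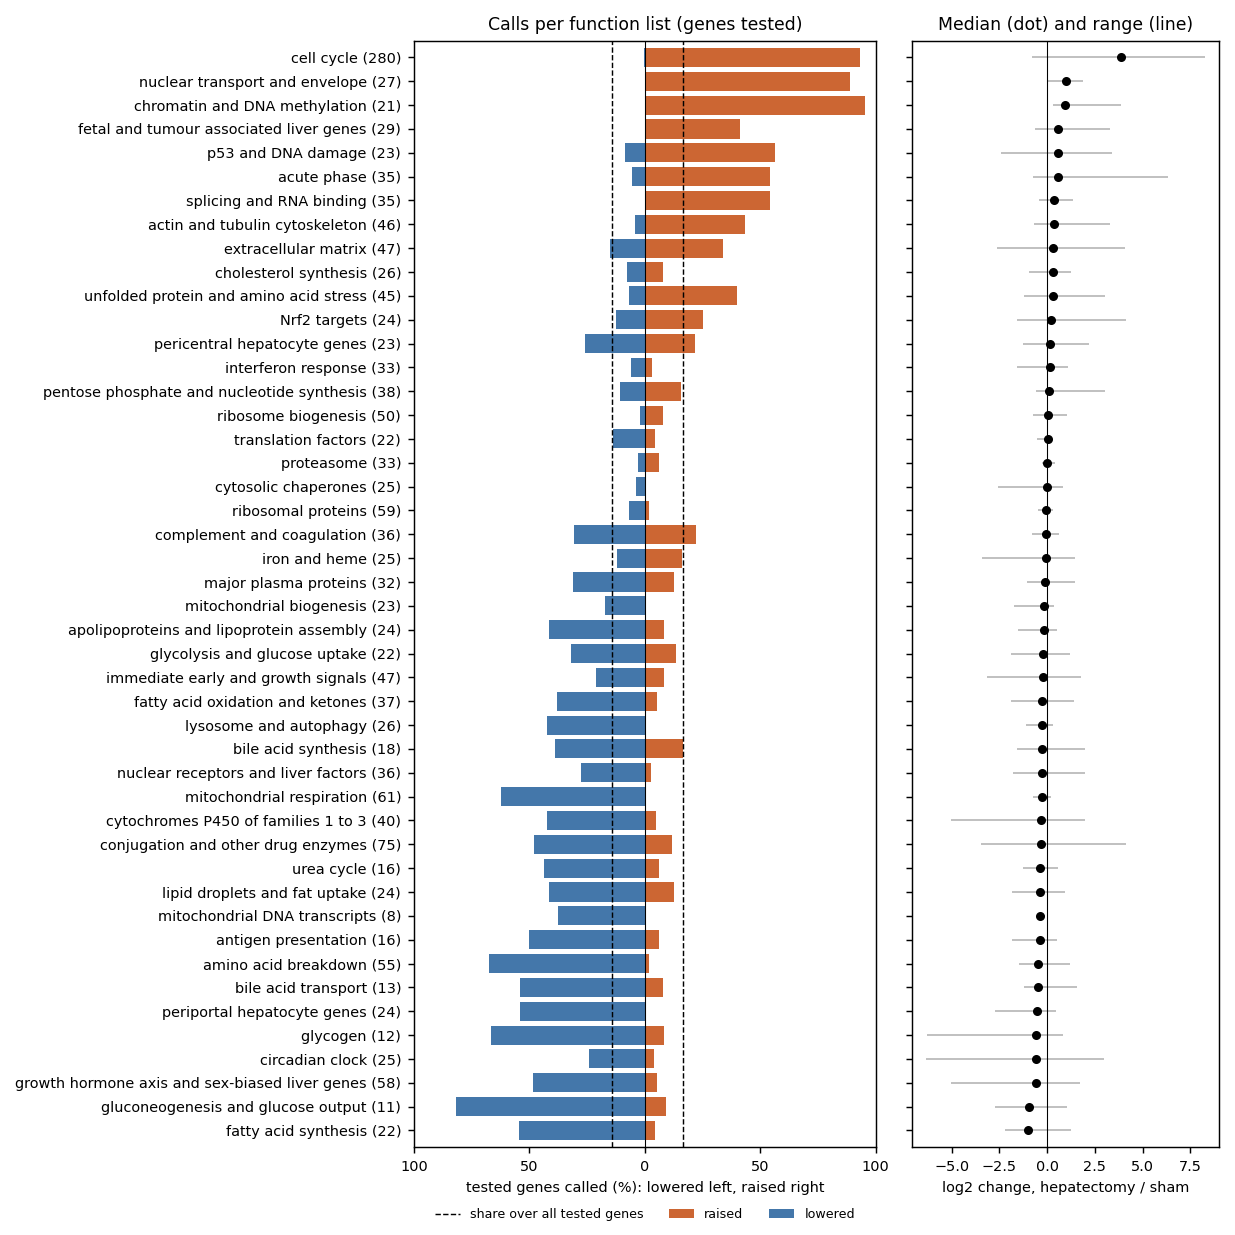
Left, percent of tested genes called raised (right bars) or lowered (left bars) in each function list, with dashed lines at the shares over all tested genes, 16.4% and 14.3%. Right, the median (dot) and range (line) of the log2 changes; cell division, nuclear transport and chromatin lie at the top, and fatty acid synthesis and gluconeogenesis at the bottom.

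The cell cycle list sets the scale. Of 280 tested members, 261 rose and 1 fell, with a median log2 change of 3.89. DNA replication genes rose in 93 of 95 cases and genes of mitosis and chromosome segregation in 141 of 144. Cdc20, the activator of the anaphase-promoting complex, measured 0.523, 0.598 and 0.377 CPM in the sham livers and 41.6, 45.4 and 74.3 CPM after hepatectomy. All 3 hepatectomy livers lay above all 3 sham livers. Its promoter holds both elements known from genes that peak in mitosis, the CCAAT box bound by NF-Y and the cell cycle homology region (CHR).

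Promoter stretches of 5 raised genes are printed here because the later results refer to them: Cdc20 for cell division, Asns and Aars for the amino acid response, and Sdf2l1 and Creld2 for the unfolded protein response. Each is the 130 bases that end just before the gene's start in RefSeq (GRCm38.p6, the C57BL/6J reference), written 5′ to 3′ along the gene, with matches to the named motif in capitals.
Cdc20, chr4:118437344-118437473, minus strand: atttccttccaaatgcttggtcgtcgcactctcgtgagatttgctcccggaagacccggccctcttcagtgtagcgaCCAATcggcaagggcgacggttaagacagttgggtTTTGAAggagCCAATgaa
Asns, chr6:7693210-7693339, minus strand: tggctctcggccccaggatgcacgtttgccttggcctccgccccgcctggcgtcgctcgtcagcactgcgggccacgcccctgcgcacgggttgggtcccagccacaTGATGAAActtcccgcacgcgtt
Aars, chr8:111033712-111033841, plus strand: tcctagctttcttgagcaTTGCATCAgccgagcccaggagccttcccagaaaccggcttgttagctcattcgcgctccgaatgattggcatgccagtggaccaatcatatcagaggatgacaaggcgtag
Sdf2l1, chr16:17132384-17132513, minus strand: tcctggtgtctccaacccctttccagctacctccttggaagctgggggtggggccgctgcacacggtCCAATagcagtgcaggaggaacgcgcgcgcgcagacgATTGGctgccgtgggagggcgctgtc
Creld2, chr15:88819516-88819645, plus strand: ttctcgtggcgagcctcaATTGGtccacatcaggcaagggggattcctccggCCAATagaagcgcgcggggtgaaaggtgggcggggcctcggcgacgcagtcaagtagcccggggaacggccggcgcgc
The capitals mark CCAAT (NF-Y) and TTTGAA or TTCGAA (CHR) in Cdc20, TGATGNAA (a composite element of C/EBP and ATF factors) in Asns and Aars, and CCAAT in Sdf2l1 and Creld2, on either strand. No marked match shares bases with a match to another motif searched. These 5 genes were chosen after their motifs were seen. A match is a description of letters, not a measured binding site.

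Motifs were counted in windows of 250 bases before to 50 after each start. CCAAT was found in 37.4% of all 32851 windows and in 90 of 129 windows (69.8%) of raised mitosis genes. The CHR letters were in 19.2% of all windows and in 81 of those 129 (62.8%). TGATGNAA was in 3.97% of all windows and in 4 of 9 windows (44.4%) of raised amino acid response genes, namely those of Aars, Asns, Gars and Nupr1. CCAAT was in all 6 windows found for raised unfolded protein response genes. TTCNNNGAA, the letters bound by STAT factors, was in 8.30% of all windows and in 5 of 16 windows (31.2%) of raised acute-phase reactants, those of Apcs, Fga, Fgb, Itih4 and Steap4. The windows of Saa1, Saa2, Saa3, Orm2 and Lcn2 did not hold these letters.

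Genes of nuclear transport and structure rose. Of 27 tested genes of nuclear transport and the nuclear envelope, 24 rose and the other 3 did not pass the test (median log2 change 1.01). Nup107, a scaffold subunit of the nuclear pore, measured 4.41, 3.47 and 3.08 CPM in the sham livers and 13.3, 15.7 and 11.7 CPM after hepatectomy (log2 change 1.89, SE 0.18, adjusted p = 0.000189). The transport receptors Xpo1 (exportin 1, log2 change 1.09) and Kpnb1 (importin beta, 1.11), the GTPase Ran (0.99) and the lamina protein genes Tmpo (1.61) and Lbr (1.23) rose as well. Every one of the 24 had all hepatectomy livers above all sham livers.

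Of 21 tested chromatin genes outside the cell cycle list, 20 rose and 1 did not pass the test (median log2 change 0.92). Ezh2, the methyltransferase of Polycomb complex 2, measured 4.51, 3.14 and 3.98 CPM in the sham livers and 23.0, 25.0 and 23.3 CPM after hepatectomy (log2 change 2.62, SE 0.14, adjusted p = 1.18e-05). The groups did not overlap. Its partner subunits Suz12 and Eed rose by a log2 of 0.56 and 0.50. Histone variant genes H2afx (2.31) and H2afz (1.81), and the heterochromatin methyltransferases Suv39h1 (1.89) and Suv39h2 (1.89), were also higher after PHx.

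Of 35 tested splicing genes, 19 rose and the other 16 did not pass the test, with a median log2 change of 0.38. The largest rises were those of the small ribonucleoprotein genes Lsm3 (1.33), Snrpd1 (1.10) and Lsm2 (1.01). Tubulin genes rose steeply. Tubb6, a beta tubulin, measured 2.71, 3.71 and 4.42 CPM in the sham livers and 32.5, 32.6 and 41.2 CPM after hepatectomy (log2 change 3.29, SE 0.19, adjusted p = 1.49e-05). Tuba1b, an alpha tubulin, measured 15.9, 16.6 and 14.7 CPM in the sham livers and 105, 114 and 133 CPM after hepatectomy (log2 change 2.90, SE 0.11, adjusted p = 5.17e-06). For both, the lowest hepatectomy liver was well above the highest sham liver. In Tuba1b, 22.7% of the exon bases are shared with another annotated gene on the same strand, so its reads are less certain. Of 13 tested tubulin and keratin genes 8 rose and 5 did not pass the test. Of 33 genes of actin and adhesion 12 rose (7 without hepatectomy 2, 6 without sham 2) and 2 fell, led by Tagln2 (transgelin 2, 1.52).

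Genes of the ribosome, the proteasome and the heat shock and chaperonin list were called no more often than genes at large. Of 50 tested ribosome biogenesis genes 4 rose (2 without hepatectomy 2 or sham 1 or sham 2) and 1 fell (median log2 change 0.03), a share below the background in both directions. Of 59 ribosomal protein genes 1 rose and 4 fell (2 without hepatectomy 1, 1 without sham 3) (median -0.03), and of 33 proteasome subunits 2 rose and 1 fell. As shares of gene counts the ribosomal protein sums did not overlap, at 0.860% to 0.903% in sham and 0.943% to 1.004% after PHx. The exact two-sided permutation test gave p = 0.1, the smallest possible. As TMM-adjusted CPM the sums overlapped, at 9192.9, 9115.5 and 9745.3 in sham and 8853, 9265.2 and 9602.6 after PHx. Of 25 heat shock and chaperonin genes 1 fell (4 without hepatectomy 3) and 24 did not pass the test, and their median log2 change was -0.03. In the list of pentose phosphate and nucleotide synthesis 6 of 38 tested genes rose (10 without hepatectomy 3) and 4 fell (2 without hepatectomy 1 or hepatectomy 2 or sham 1 or sham 2 or sham 3), shares near the background over all libraries. Of its 12 purine genes 1 rose and 1 fell, and of its 17 pyrimidine and folate genes 4 rose (7 without hepatectomy 3) and 2 fell. Ctps, the enzyme that makes CTP, measured 4.05, 5.62 and 7.33 CPM in the sham livers and 15.2, 21.4 and 15.1 CPM after hepatectomy (log2 change 1.61, SE 0.23, adjusted p = 0.00165).

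The acute-phase response rose. Of 26 tested reactants 18 rose and the other 8 did not pass the test, with a median log2 change of 0.80. Saa2, which encodes the lipoprotein-bound serum amyloid A2, is at chr7:46751790-46754313 (GRCm38) and measured 18.4, 32.0 and 26.1 CPM in the sham livers and 2079.8, 1534 and 2512 CPM after hepatectomy (log2 change 6.32, SE 0.29, adjusted p = 6.46e-06). Lcn2, lipocalin 2, a protein that withholds iron from bacteria, measured 4.93, 10.3 and 6.10 CPM in the sham livers and 276, 139.8 and 304 CPM after hepatectomy (log2 change 5.07, SE 0.39, adjusted p = 6.37e-05). The lowest hepatectomy liver was many fold above the highest sham liver for both genes. Orm2, an orosomucoid, measured 2.65, 5.05 and 5.21 CPM in the sham livers and 156, 91.6 and 168 CPM after hepatectomy (log2 change 5.01, SE 0.33, adjusted p = 2.68e-05), and Saa1 65.2, 136 and 142 CPM in the sham livers and 3269, 2598 and 4474 CPM after hepatectomy. Saa3 measured 2.45, 2.12 and 1.88 CPM in the sham livers and 48.6, 96.7 and 15.8 CPM after hepatectomy, lowest of the hepatectomy livers in hepatectomy 3 but still above all sham livers. Saa1 and Saa2, and Orm1 and Orm2, are near-identical pairs, so the split of reads within each pair is uncertain.

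More abundant reactants rose too. Hp, haptoglobin, which binds free hemoglobin, measured 1686, 1700.3 and 1904 CPM in the sham livers and 5103, 4154 and 7229.8 CPM after hepatectomy (log2 change 1.64, SE 0.19, adjusted p = 0.000597), and Hpx, hemopexin, which binds heme, rose by a log2 of 1.56. The fibrinogen chain genes Fgb and Fgg rose by 0.52 and 0.61 on the log2 scale, and Fga rose (log2 change 0.55, SE 0.12, adjusted p = 0.0117, not called without sham 3 (adjusted p = 0.0504)). Together the 35 genes of the acute-phase list took 2.29%, 2.38% and 2.36% of gene counts in sham and 5.74%, 4.79% and 6.25% after PHx. Hamp, hepcidin, the iron hormone that inflammation usually raises, did not pass the test (508, 922 and 1000.3 CPM in sham and 602, 444 and 389.9 CPM after PHx, log2 change -0.76, SE 0.26, adjusted p = 0.0578). Its duplicate Hamp2 measured 81.4, 52.8 and 62.8 CPM in the sham livers and 3.38, 3.21 and 11.6 CPM after hepatectomy (log2 change -3.43, SE 0.48, adjusted p = 0.00138, with a log2 change of -4.32 without hepatectomy 3), with all hepatectomy livers below all sham livers. Among 9 signalling genes of the response, Stat3 rose (log2 change 0.32, SE 0.09, adjusted p = 0.0242, not called without hepatectomy 1 (adjusted p = 0.0632) or sham 1 (adjusted p = 0.0579) or sham 2 (adjusted p = 0.0862) or sham 3 (adjusted p = 0.0867)). The others that passed the test were the receptor gene Il6ra, which fell (log2 change -0.64, SE 0.18, adjusted p = 0.0301, not called without hepatectomy 2 (adjusted p = 0.0713) or hepatectomy 3 (adjusted p = 0.0517) or sham 2 (adjusted p = 0.112) or sham 3 (adjusted p = 0.104)), and the NF-kappa-B inhibitor gene Nfkbia, which fell (log2 change -0.58, SE 0.14, adjusted p = 0.017, not called without sham 2 (adjusted p = 0.052) or sham 3 (adjusted p = 0.0673)). Macrophage markers did not move with the reactants as a list: 1 of 12 tested rose, Marco, at 3.01, 5.08 and 3.53 CPM in the sham livers and 23.2, 18.2 and 5.42 CPM after hepatectomy (log2 change 2.00, SE 0.48, adjusted p = 0.0162, not called without sham 1 (adjusted p = 0.0564) or sham 3 (adjusted p = 0.0691)). Their part in the rise of the reactants was not tested.

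Among genes of other secreted proteins, those of plasma proteins and coagulation fell more often than genes at large, and those of complement went both ways. Of 32 major plasma protein genes 4 rose (2 without sham 1 or sham 2, 1 without sham 3) and 10 fell, and the list took 18.6% to 19.2% of gene counts in sham and 17.97% to 19.7% after PHx. As TMM-adjusted CPM the sums did not overlap, at 202730, 200910 and 200590 in sham and 168700, 173770 and 188260 after PHx. Itih3, a heavy chain of the inter-alpha-trypsin inhibitors, rose by a log2 of 1.46, and Serpina6, which encodes the corticosteroid carrier of plasma, fell by 1.04. Complement genes were split, with 6 of 21 raised and 5 lowered (3 without sham 2 or sham 3). Among the raised were Hc (component 5, 0.64) and C3 (0.61). Coagulation genes were lowered in 6 of 15 and raised in 2. The raised shares were 12.5% for plasma proteins, 28.6% for complement and 13.3% for coagulation, against 16.4% over all genes. The lowered shares were 31.25%, 23.8% and 40% in that order, against 14.3%.

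**Figure D4:**
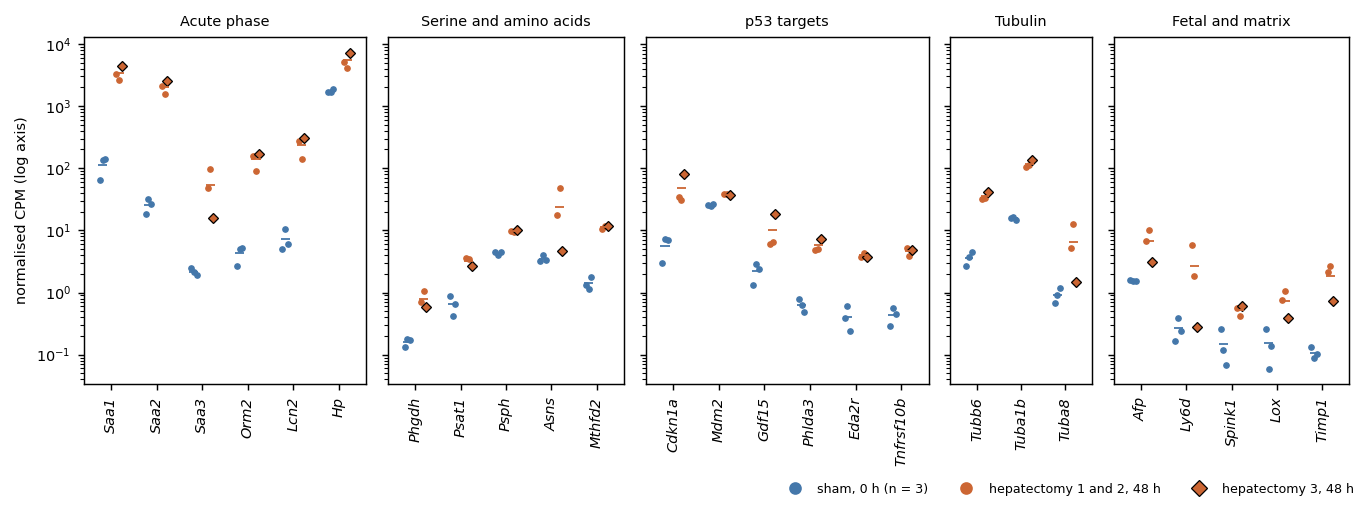
Normalised CPM (log axis) of raised genes in each library; circles are sham (blue) and hepatectomy 1 and 2 (orange), diamonds hepatectomy 3, short lines group means. The acute-phase genes Saa2 and Lcn2 show wide gaps between the groups, and Asns, Tuba8, Ly6d and Afp are lowest after PHx in hepatectomy 3.

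Serine synthesis rose, and the amino acid response rose in part. Phgdh, the first enzyme of serine synthesis from glucose, measured 0.131, 0.179 and 0.171 CPM in the sham livers and 0.699, 1.06 and 0.581 CPM after hepatectomy (log2 change 2.25, SE 0.39, adjusted p = 0.00397). Psat1, the second enzyme, measured 0.882, 0.418 and 0.651 CPM in the sham livers and 3.58, 3.51 and 2.71 CPM after hepatectomy (log2 change 2.33, SE 0.29, adjusted p = 0.000794). Psph, the last, measured 4.44, 4.03 and 4.52 CPM in the sham livers and 9.94, 9.52 and 10.0 CPM after hepatectomy (log2 change 1.18, SE 0.12, adjusted p = 0.000333). All 3 steps were higher in each hepatectomy liver than in any sham liver. Phgdh rests on few reads, 4 to 6 per sham library and 21 to 36 per hepatectomy library. Asns, asparagine synthetase, measured 3.27, 4.005 and 3.29 CPM in the sham livers and 17.5, 48.6 and 4.65 CPM after hepatectomy (log2 change 2.74, SE 0.72, adjusted p = 0.0224, not called without sham 1 (adjusted p = 0.0692) or sham 2 (adjusted p = 0.0731) or sham 3 (adjusted p = 0.0867)). Its log2 change was 3.23 without hepatectomy 3 (adjusted p = 0.000637) and 1.64 without hepatectomy 2 (adjusted p = 0.0493). Hepatectomy 3 was close to the sham livers and hepatectomy 2 far above them. Mthfd2, the mitochondrial folate enzyme that uses serine-derived carbon, measured 1.34, 1.136 and 1.78 CPM in the sham livers and 10.4, 11.9 and 11.8 CPM after hepatectomy (log2 change 3.00, SE 0.19, adjusted p = 2.31e-05). Of 23 tested genes of the amino acid response, which the factor ATF4 drives, 10 rose (5 without sham 2 or sham 3) and 2 fell. The cysteinyl-tRNA synthetase gene Cars rose by 1.13. Ddit3, the stress factor CHOP, did not pass the test (5.85, 3.68 and 5.24 CPM in sham and 4.90, 2.03 and 6.44 CPM after PHx, log2 change -0.14, SE 0.38, adjusted p = 0.812, and -0.51 without hepatectomy 3). Slc1a4, a carrier of serine and alanine, measured 4.67, 3.68 and 3.77 CPM in the sham livers and 15.8, 20.4 and 19.4 CPM after hepatectomy (log2 change 2.20, SE 0.15, adjusted p = 3.64e-05).

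The unfolded protein response, by which the endoplasmic reticulum (ER) adds folding capacity, rose in part. Of 22 tested genes 8 rose (4 without sham 2, 5 without sham 3) and 1 fell. Sdf2l1, an ER chaperone partner whose promoter is printed above, measured 15.2, 8.91 and 9.80 CPM in the sham livers and 24.8, 25.1 and 50.9 CPM after hepatectomy (log2 change 1.57, SE 0.32, adjusted p = 0.00791). Creld2, a secreted ER stress protein, measured 22.1, 21.5 and 24.5 CPM in the sham livers and 37.6, 34.1 and 66.1 CPM after hepatectomy (log2 change 1.02, SE 0.23, adjusted p = 0.0135, not called without sham 2 (adjusted p = 0.0582)), and its log2 change was 0.66 without hepatectomy 3. Hepatectomy livers lay above sham livers for both. Herpud1, part of the degradation branch, fell by 1.17. Hspa5, the main ER chaperone BiP, did not pass the test (719, 663 and 643 CPM in sham and 797, 737 and 1243 CPM after PHx), and its highest value was that of hepatectomy 3 (log2 change 0.46, SE 0.19, adjusted p = 0.1, and 0.18 without hepatectomy 3).

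Targets of p53, the factor that halts damaged or over-stimulated cells, rose in 13 of 23 tested cases and fell in 2 (median log2 change 0.56). Tnfrsf10b, a death receptor for the ligand TRAIL, measured 0.294, 0.568 and 0.446 CPM in the sham livers and 5.22, 3.92 and 4.81 CPM after hepatectomy (log2 change 3.40, SE 0.27, adjusted p = 7.26e-05). Eda2r, a receptor of the TNF family, measured 0.392, 0.598 and 0.240 CPM in the sham livers and 3.73, 4.39 and 3.71 CPM after hepatectomy (log2 change 3.24, SE 0.30, adjusted p = 0.000165), and Phlda3, an inhibitor of the kinase Akt, measured 0.784, 0.628 and 0.480 CPM in the sham livers and 4.84, 4.95 and 7.33 CPM after hepatectomy (log2 change 3.17, SE 0.27, adjusted p = 0.000113). The groups were wide apart for all 3. Cdkn1a, the cyclin-dependent kinase inhibitor p21, counted in the cell cycle list, measured 2.94, 7.23 and 6.89 CPM in the sham livers and 34.5, 31.3 and 80.6 CPM after hepatectomy (log2 change 3.10, SE 0.45, adjusted p = 0.00178). Gdf15, a stress hormone of the TGF-beta family, rose by 2.21 on the log2 scale (1.52 without hepatectomy 3) and the p53 antagonist Mdm2 by 0.56. Trp53inp1 went the other way, at 235, 382 and 359.7 CPM in the sham livers and 64.7, 66.1 and 54.4 CPM after hepatectomy (log2 change -2.40, SE 0.19, adjusted p = 6.88e-05). Gadd45a fell as well (log2 change -1.50, SE 0.37, adjusted p = 0.0177, not called without hepatectomy 2 (adjusted p = 0.0618) or sham 1 (adjusted p = 0.0562) or sham 3 (adjusted p = 0.0564)).

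Genes known from fetal liver and liver tumours rose in 12 of 29 tested cases (7 without sham 2), and the other 17 did not pass the test. Afp, alpha-fetoprotein, the main plasma protein of the fetus, measured 1.60, 1.52 and 1.54 CPM in the sham livers and 6.85, 10.1 and 3.10 CPM after hepatectomy (log2 change 2.10, SE 0.40, adjusted p = 0.00578). Spink1, a trypsin inhibitor, measured 0.261, 0.120 and 0.0685 CPM in the sham livers and 0.554, 0.413 and 0.608 CPM after hepatectomy (log2 change 1.78, SE 0.47, adjusted p = 0.0231, not called without hepatectomy 1 (adjusted p = 0.0565) or hepatectomy 3 (adjusted p = 0.0547) or sham 2 (adjusted p = 0.097) or sham 3 (adjusted p = 0.0833)). Ly6d, a small membrane protein, measured 0.163, 0.389 and 0.240 CPM in the sham livers and 5.74, 1.86 and 0.276 CPM after hepatectomy (log2 change 3.28, SE 0.99, adjusted p = 0.0375, not called without hepatectomy 1 (adjusted p = 0.0995) or hepatectomy 2 (adjusted p = 0.0596) or sham 1 (adjusted p = 0.107) or sham 2 (adjusted p = 0.0931) or sham 3 (adjusted p = 0.121), with a log2 change of 1.98 without hepatectomy 1), and in hepatectomy 3 it was inside the sham range. The calcium-binding gene S100a11 (1.54) and the galectin gene Lgals1 (1.47) rose. Sox9, a factor of bile duct and progenitor cells, did not pass the test (2.55, 1.91 and 2.23 CPM in sham and 2.65, 2.65 and 9.35 CPM after PHx); hepatectomy 3 alone was high, and the log2 change of 1.13, SE 0.49, adjusted p = 0.119 became 0.25 without it.

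In the list of extracellular matrix genes 16 of 47 rose and 7 fell (4 without hepatectomy 2 or sham 1, 3 without sham 2). Of its 32 collagens and matrix proteins 13 rose and 5 fell (3 without hepatectomy 1 or hepatectomy 3 or sham 1, 2 without hepatectomy 2 or sham 2), and of its 15 proteases and inhibitors 3 rose and 2 fell, shares near the background. Lox, the enzyme that cross-links collagen, rose from 0.261, 0.0598 and 0.137 CPM to 0.758, 1.06 and 0.387 CPM (log2 change 2.25, SE 0.57, adjusted p = 0.0195, not called without hepatectomy 2 (adjusted p = 0.0654) or sham 2 (adjusted p = 0.0762) or sham 3 (adjusted p = 0.0751)), and Eln, elastin, rose by 1.99. Basement membrane collagens Col4a1 (1.17) and Col4a2 (1.11) rose, while Thbs1, thrombospondin 1, an activator of TGF-beta, measured 6.30, 0.897 and 2.06 CPM in the sham livers and 0.612, 0.501 and 0.387 CPM after hepatectomy (log2 change -2.62, SE 0.69, adjusted p = 0.0225, not called without hepatectomy 2 (adjusted p = 0.0678) or hepatectomy 3 (adjusted p = 0.0514), with a log2 change of -1.55 without sham 1). Timp1, an inhibitor of matrix proteases and one of the 3 raised in its part of the list, measured 0.131, 0.0897 and 0.103 CPM in the sham livers and 2.16, 2.68 and 0.719 CPM after hepatectomy (log2 change 4.06, SE 0.61, adjusted p = 0.00204), with all hepatectomy livers above all sham livers. Of the 14 tested stellate cell and fibroblast markers 3 rose and 2 fell, shares near the background, with the summed levels given above. The 3 that rose were Col1a1, Col3a1 and Lum, which are themselves collagen or matrix genes. The part of the 14 markers in the matrix result was not tested.

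Genes of glucose output fell. Of 11 tested genes of gluconeogenesis 9 fell and 1 rose (median log2 change -0.97). G6pc, the phosphatase that releases glucose, is at chr11:101367561-101377903 (GRCm38) and measured 208, 536 and 558 CPM in the sham livers and 74.6, 57.8 and 66.6 CPM after hepatectomy (log2 change -2.71, SE 0.34, adjusted p = 0.000902). Pck1, the enzyme that commits carbon to glucose, measured 2516, 3105 and 3412 CPM in the sham livers and 1366, 1470.1 and 530.2 CPM after hepatectomy (log2 change -1.42, SE 0.34, adjusted p = 0.0155, not called without sham 2 (adjusted p = 0.0517) or sham 3 (adjusted p = 0.0606)). Ppargc1a, the coactivator that drives both, measured 56.5, 70.4 and 64.9 CPM in the sham livers and 32.8, 14.8 and 9.84 CPM after hepatectomy (log2 change -1.74, SE 0.38, adjusted p = 0.0108). In each, all hepatectomy livers were below all sham livers. Pck1 was lowest in hepatectomy 3, and without that library it fell by 1.09 (adjusted p = 0.000616). The mitochondrial form Pck2 rose by 1.02.

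Glycogen genes fell in 8 of 12 tested cases (5 without sham 1 or sham 3, 4 without sham 2) and rose in 1. Ppp1r3g, which tethers protein phosphatase 1 to glycogen after meals, is at chr13:35958839-35970388 (GRCm38) and measured 40.1, 64.3 and 67.0 CPM in the sham livers and 1.98, 0.206 and 0 CPM after hepatectomy (log2 change -6.30, SE 0.78, adjusted p = 0.000806, with a log2 change of -5.70 without hepatectomy 3). Hepatectomy 3 had 0 reads of the gene, hepatectomy 2 had 7 and hepatectomy 1 had 68, against 1229 to 2153 in the sham libraries. Gys2, liver glycogen synthase, measured 379.9, 612 and 569 CPM in the sham livers and 264, 258 and 118 CPM after hepatectomy (log2 change -1.29, SE 0.31, adjusted p = 0.0154, not called without sham 2 (adjusted p = 0.0599) or sham 3 (adjusted p = 0.0597)). Glycolysis and glucose uptake genes fell in 7 of 22 cases and rose in 3. Pklr, liver pyruvate kinase, measured 358, 367 and 377 CPM in the sham livers and 99.8, 92.2 and 104 CPM after hepatectomy (log2 change -1.90, SE 0.08, adjusted p = 6.46e-06). The hepatectomy livers were close together and far below the sham livers. Of its exon bases 22.0% are shared with a gene on the opposite strand. The rising members were Ldha, lactate dehydrogenase A (1.21), the carrier gene Slc2a1 (0.81) and Pkm (log2 change 0.69, SE 0.17, adjusted p = 0.0193, not called without hepatectomy 1 (adjusted p = 0.0547) or hepatectomy 2 (adjusted p = 0.0643) or sham 2 (adjusted p = 0.0678) or sham 3 (adjusted p = 0.0626)), another pyruvate kinase gene. Counts per gene do not tell the splice forms of Pkm apart.

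Of 22 tested fatty acid synthesis genes 12 fell and 1 rose (median log2 change -0.98). Scd1, which makes monounsaturated fatty acids, measured 21585, 13339 and 13760.0 CPM in the sham livers and 5129.6, 2855 and 5252 CPM after hepatectomy (log2 change -1.88, SE 0.28, adjusted p = 0.00177). Fasn, fatty acid synthase, measured 1594, 1395 and 1434 CPM in the sham livers and 287, 654 and 551 CPM after hepatectomy (log2 change -1.57, SE 0.26, adjusted p = 0.0034). Thrsp, a regulator of lipid synthesis, measured 2019, 2059 and 2344 CPM in the sham livers and 335, 361 and 689.5 CPM after hepatectomy (log2 change -2.21, SE 0.27, adjusted p = 0.000687). No hepatectomy liver reached the lowest sham liver in these 3 genes. Mlxipl, the glucose-sensing activator ChREBP, fell (log2 change -0.65, SE 0.17, adjusted p = 0.0233, not called without hepatectomy 1 (adjusted p = 0.0602) or hepatectomy 2 (adjusted p = 0.0738) or sham 1 (adjusted p = 0.0539) or sham 2 (adjusted p = 0.0523) or sham 3 (adjusted p = 0.09)). Srebf1, the insulin-driven activator, did not pass the test (512, 582 and 572 CPM in sham and 292, 574 and 559 CPM after PHx, log2 change -0.23, SE 0.23, adjusted p = 0.495, and -0.36 without hepatectomy 3). Elovl3, an elongase higher in male liver, rose (log2 change 1.27, SE 0.28, adjusted p = 0.0106, not called without sham 2 (adjusted p = 0.0507) or sham 3 (adjusted p = 0.0544)). Lipid droplet and fat uptake genes fell in 10 of 24 cases (5 without sham 2, 4 without sham 3) and rose in 3.

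The count of cholesterol synthesis genes depended on hepatectomy 3. Over all libraries 1 of 20 pathway enzymes fell and the other 19 did not pass the test, with a median log2 change of 0.34. Without hepatectomy 3, 13 rose and 1 fell, with a median of 0.53. Hmgcs1, the synthase of the pathway's first committed intermediate, measured 246, 145 and 137 CPM in the sham livers and 609, 494 and 157 CPM after hepatectomy. Its log2 change was 1.26, SE 0.45, adjusted p = 0.0683 over all libraries, and 1.64 without hepatectomy 3 (adjusted p = 0.00178). Hepatectomy 1 and 2 were each above all 3 sham livers for 15 of the 20 enzymes, and hepatectomy 3 for 1.

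Genes of amino acid breakdown fell in each of the branches listed. Of 55 tested genes 37 fell and 1 rose (median log2 change -0.48). For aromatic amino acids 9 of 12 fell, for methionine and sulfur 7 of 9, and for branched chains and lysine 13 of 16. Tat, tyrosine aminotransferase, measured 2252, 3640.0 and 3801 CPM in the sham livers and 1014, 1893 and 1138 CPM after hepatectomy (log2 change -1.26, SE 0.27, adjusted p = 0.0105). Hpd, the next enzyme of tyrosine breakdown, measured 2189, 2325 and 2489 CPM in the sham livers and 1098, 1186 and 1111 CPM after hepatectomy (log2 change -1.04, SE 0.09, adjusted p = 0.000102). Csad, which makes the taurine precursor, measured 56.5, 38.6 and 35.2 CPM in the sham livers and 15.6, 13.8 and 16.7 CPM after hepatectomy (log2 change -1.50, SE 0.18, adjusted p = 0.000704). The groups did not overlap in any of the 3. Oat, ornithine aminotransferase, a gene of hepatocytes near the central vein, rose by 1.19. The serine, glycine, threonine, proline and histidine branch fell in 8 of 18 cases (5 without sham 2 or sham 3).

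Urea cycle genes fell. Of the 6 enzymes of nitrogen entry and the cycle, 4 fell and 1 rose. Asl, argininosuccinate lyase, measured 791, 855 and 934 CPM in the sham livers and 365, 362 and 360.1 CPM after hepatectomy (log2 change -1.25, SE 0.09, adjusted p = 3.73e-05), with the 3 hepatectomy livers close together and below all sham livers. Otc fell by 0.59 on the log2 scale and Arg1 fell by 0.58. Ass1 fell as well (log2 change -0.34, SE 0.09, adjusted p = 0.0241, not called without hepatectomy 1 (adjusted p = 0.0789) or sham 1 (adjusted p = 0.0727) or sham 2 (adjusted p = 0.0566) or sham 3 (adjusted p = 0.0877)). Cps1, the entry enzyme, did not pass the test (4967, 5365 and 4944 CPM in sham and 3985, 4552 and 3256 CPM after PHx, log2 change -0.37, SE 0.13, adjusted p = 0.0599). Nags, which makes the activator of Cps1, rose by 0.57.

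Genes of mitochondrial respiration fell by small amounts. Of 47 nuclear encoded subunits of the respiratory chain 29 fell (19 without hepatectomy 1, 14 without sham 2 or sham 3) and 18 did not pass the test (median log2 change -0.29). Of 14 citric acid cycle genes 9 fell. Together these 61 genes took 1.21% to 1.26% of gene counts in sham and 1.10% to 1.19% after PHx. As TMM-adjusted CPM they summed to 12846, 13238 and 13640 in sham and 10585, 10972 and 10549 after PHx. Neither measure overlapped between the groups, and the size of the fall depended on the scaling. Sdhb, the iron-sulfur subunit of complex II, fell by 0.61. Both chains of pyruvate dehydrogenase E1 fell, with log2 changes of -0.74 (Pdhb) and -0.58 (Pdha1). Transcripts of mitochondrial DNA took 4.25% to 5.32% of gene counts in sham and 3.85% to 4.41% after PHx, overlapping ranges. As TMM-adjusted CPM their sums did not overlap, at 45017, 48802 and 57366 in sham and 38782, 40673 and 36825 after PHx. Several mitochondrial genes (mt-Co2, mt-Co3, mt-Atp6) were under 1 CPM in every library while mt-Co1, the most abundant, had 16420 to 26050 CPM, so these sums cover only part of the genome.

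Lysosome and autophagy genes fell in 11 of 26 cases (6 without hepatectomy 2 or sham 1, 4 without sham 2, 2 without sham 3), led by Ulk1, the kinase that starts autophagy (-1.09). Genes of fatty acid oxidation and ketone bodies fell in 14 of 37 cases and rose in 2 (4 without hepatectomy 3).

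**Figure D5:**
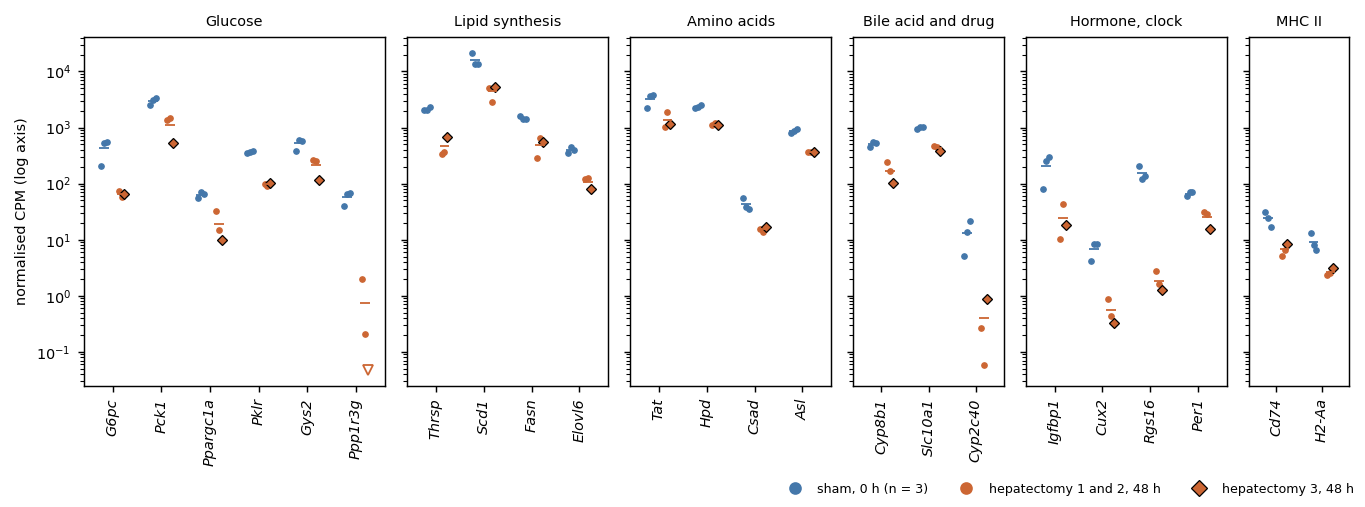
Normalised CPM (log axis) of lowered genes in each library; circles are sham (blue) and hepatectomy 1 and 2 (orange), diamonds hepatectomy 3, short lines group means, and the open triangle a library with 0 reads, drawn below the axis range of the rest. Every gene shown has its 3 hepatectomy livers below its 3 sham livers.

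Genes of bile acid uptake and 12-hydroxylation fell, and the gene of the repressor SHP rose. Slc10a1, the sodium-coupled carrier NTCP that takes bile acids from blood, measured 929, 1016 and 1027 CPM in the sham livers and 462, 445 and 383 CPM after hepatectomy (log2 change -1.20, SE 0.10, adjusted p = 8.86e-05). Cyp8b1, the 12-alpha-hydroxylase that sets the cholic acid share, measured 456, 550.3 and 527 CPM in the sham livers and 239, 168 and 103 CPM after hepatectomy (log2 change -1.59, SE 0.26, adjusted p = 0.00323). Nr0b2, the repressor SHP, which bile acids induce through FXR, measured 4.93, 4.09 and 8.94 CPM in the sham livers and 13.3, 26.5 and 31.6 CPM after hepatectomy (log2 change 1.99, SE 0.38, adjusted p = 0.00562). Groups did not overlap in any of the 3. The sinusoidal exporter subunit gene Slc51b rose from 0.751, 0.329 and 0.514 CPM to 1.05, 1.33 and 2.27 CPM (log2 change 1.55, SE 0.41, adjusted p = 0.0227, not called without hepatectomy 3 (adjusted p = 0.0561) or sham 2 (adjusted p = 0.0869) or sham 3 (adjusted p = 0.0795)). Cyp7a1, the rate-limiting enzyme of bile acid synthesis, did not pass the test, at 471, 932 and 858 CPM in the sham livers and 591, 399.7 and 124 CPM after hepatectomy (log2 change -1.02, SE 0.50, adjusted p = 0.157, and -0.61 without hepatectomy 3). In all, 7 of 13 transport genes fell and 1 rose (6 and 0 without hepatectomy 3), and 7 of 18 synthesis genes fell (4 without sham 2 or sham 3) and 3 rose.

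Genes of drug metabolism fell, and rises were fewer than among genes at large. Over all libraries 5% of the cytochrome P450 list and 12% of the conjugation list rose, against 16.4% of all tested genes. Of 40 tested cytochrome P450 genes of families 1 to 3, 17 fell (10 without sham 2 or sham 3) and 2 rose (4 without hepatectomy 3). The list took 2.22%, 2.33% and 2.29% of gene counts in sham and 2.12%, 1.67% and 1.83% after PHx. Cyp2c40 measured 5.03, 13.5 and 21.6 CPM in the sham livers and 0.262, 0.0590 and 0.885 CPM after hepatectomy (log2 change -5.02, SE 0.75, adjusted p = 0.00199, with a log2 change of -6.34 without hepatectomy 3), and Cyp2a4, a steroid hydroxylase, fell (log2 change -2.57, SE 0.72, adjusted p = 0.0293, not called without hepatectomy 1 (adjusted p = 0.0769) or hepatectomy 2 (adjusted p = 0.09) or sham 2 (adjusted p = 0.0838) or sham 3 (adjusted p = 0.11)). Members of the Cyp2c and Cyp2a clusters are close copies, so their reads may be split between them. Cyp2e1, the ethanol-inducible form, fell by 0.82, and Por, the reductase that serves all of them, fell (log2 change -1.09, SE 0.25, adjusted p = 0.0131, not called without sham 2 (adjusted p = 0.053) or sham 3 (adjusted p = 0.0556)). Of 75 conjugation and related genes 36 fell (21 without sham 2, 23 without sham 3) and 9 rose (5 without hepatectomy 1, 4 without sham 2 or sham 3). Gsta1, a glutathione transferase, measured 0.523, 0.478 and 0.343 CPM in the sham livers and 5.60, 14.9 and 3.15 CPM after hepatectomy (log2 change 4.12, SE 0.63, adjusted p = 0.00216), with every hepatectomy liver above every sham liver; Gsta2 is its near copy.

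The growth hormone axis, which sets liver IGF1 output and the sex pattern of liver genes, fell in 7 of 14 tested genes. Igfbp1, a binding protein of IGF1 that insulin represses, measured 79.0, 251 and 299 CPM in the sham livers and 10.2, 43.5 and 18.3 CPM after hepatectomy (log2 change -3.13, SE 0.63, adjusted p = 0.00737). Cux2, a repressor typical of female liver, measured 4.15, 8.31 and 8.22 CPM in the sham livers and 0.874, 0.442 and 0.332 CPM after hepatectomy (log2 change -3.65, SE 0.41, adjusted p = 0.00047). Ghr, the growth hormone receptor, fell by 0.77 and Igf1 fell by 0.51. Genes higher in male liver fell in 13 of 27 cases and rose in 3, and genes higher in female liver fell in 8 of 17. The major urinary protein genes, secreted male pheromone carriers with many near-identical copies, summed to 1.30%, 1.05% and 1.04% of gene counts in sham and to 0.605%, 0.703% and 0.676% after PHx.

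Some factors of liver identity fell. Of 36 tested nuclear receptors and liver factors 10 fell (6 without sham 2 or sham 3) and 1 rose, the SHP gene above. Hnf4a, a main factor of hepatocyte identity, did not pass the test (657, 735 and 719.7 CPM in sham and 659.8, 598 and 605 CPM after PHx, log2 change -0.18, SE 0.08, adjusted p = 0.144). The xenobiotic receptors Nr1i2 (PXR, -0.73) and Nr1i3 (CAR, -0.71) fell, as did Esrrg (-1.78). Genes typical of hepatocytes near the portal vein fell in 13 of 24 cases (8 without sham 2). Genes typical of hepatocytes near the central vein were split, 5 raised and 6 lowered of 23. Among the raised were Rnf43, a feedback inhibitor of Wnt signalling, at 11.1, 11.4 and 11.3 CPM in the sham livers and 22.8, 34.0 and 27.3 CPM after hepatectomy (log2 change 1.31, SE 0.15, adjusted p = 0.000484), and Sp5 (log2 change 1.20, SE 0.29, adjusted p = 0.0171, not called without hepatectomy 2 (adjusted p = 0.0558) or sham 1 (adjusted p = 0.0546) or sham 3 (adjusted p = 0.0668)), both Wnt targets. Wnt9b, a Wnt ligand of liver endothelium, measured 1.47, 1.34 and 0.823 CPM in the sham livers and 4.55, 4.13 and 4.01 CPM after hepatectomy (log2 change 1.79, SE 0.23, adjusted p = 0.00105). Axin2, another Wnt target, did not pass the test (4.34, 8.67 and 9.63 CPM in sham and 9.44, 8.64 and 7.08 CPM after PHx). Cyp2e1, also a gene of hepatocytes near the central vein, fell, as given above. Rnf43 and Sp5 stand for the 5 raised genes of that list and not for the 6 lowered. Whether Wnt signalling changed was not tested.

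In the clock list 6 of 25 tested genes fell and 1 rose, and without hepatectomy 3 the count was 15 lowered and 1 raised; it was 3 lowered without sham 2 or sham 3. Rgs16, a regulator of G protein signalling with a daily rhythm in liver, is at chr1:153740349-153745468 (GRCm38) and measured 206, 120.0 and 134 CPM in the sham livers and 2.74, 1.59 and 1.24 CPM after hepatectomy (log2 change -6.37, SE 0.34, adjusted p = 1.02e-05). It was low in hepatectomy 3 and in the other 2 hepatectomy livers alike. Clock measured 22.5, 21.1 and 18.5 CPM in the sham livers and 39.7, 40.6 and 67.3 CPM after hepatectomy (log2 change 1.25, SE 0.21, adjusted p = 0.0032) and Per1 59.5, 70.9 and 69.5 CPM in the sham livers and 31.7, 28.7 and 15.8 CPM after hepatectomy (log2 change -1.39, SE 0.23, adjusted p = 0.00325). Without hepatectomy 3 the log2 changes were -6.14 for Rgs16, 0.95 for Clock and -1.143 for Per1, all called. Arntl, at 2.99, SE 1.19, adjusted p = 0.0934 over all libraries, was at 0.03 without hepatectomy 3. Since the hour of collection is not given, PHx and the hour cannot be told apart for these genes.

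Immediate early genes, the fast transcription factors of growth and stress signals, were lower at 48 h in 6 of 17 tested cases, and in 13 of 17 without hepatectomy 3. Jun measured 76.2, 44.4 and 52.6 CPM in the sham livers and 18.3, 18.4 and 73.7 CPM after hepatectomy, and its log2 change was -0.65, SE 0.52, adjusted p = 0.384 over all libraries and -1.66 without hepatectomy 3 (adjusted p = 0.0011). Hepatectomy 3 was at the upper end of the sham range and the other 2 hepatectomy livers were below it. Myc, the growth factor target and transcription factor, measured 64.5, 48.4 and 54.2 CPM in the sham livers and 13.5, 32.7 and 16.0 CPM after hepatectomy (log2 change -1.43, SE 0.31, adjusted p = 0.0101), and Atf3, a stress factor, fell by 2.45.

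The list of antigen presentation holds genes of class I and class II molecules, and 8 of its 16 tested members fell (5 without sham 2 or sham 3) and 1 rose. Cd74, the invariant chain, measured 30.6, 24.5 and 16.6 CPM in the sham livers and 5.10, 6.49 and 8.49 CPM after hepatectomy (log2 change -1.84, SE 0.26, adjusted p = 0.00139), and H2-Aa, a class II chain, measured 13.3, 7.92 and 6.48 CPM in the sham livers and 2.30, 2.54 and 3.07 CPM after hepatectomy (log2 change -1.81, SE 0.28, adjusted p = 0.00239). All hepatectomy livers were below all sham livers for both. The sums of lymphocyte markers were 0.000538% to 0.000639% of gene counts in sham and 0.000481% to 0.00105% after PHx, and those of macrophage markers are given above; their part in this result was not tested. Of 33 interferon targets 1 rose and 2 fell over all libraries, and without hepatectomy 3, 8 rose and 2 fell.

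Of the 15 largest rises outside the cell cycle, histone and chromatin lists, several have known roles in cell division or DNA repair though they are not on the cell cycle list, among them Ercc6l, Mastl, Traip and Fignl1. Neurl1b, an E3 ubiquitin ligase of Notch signalling, measured 0.392, 0.239 and 0.480 CPM in the sham livers and 16.5, 22.3 and 27.3 CPM after hepatectomy (log2 change 5.90, SE 0.29, adjusted p = 7.75e-06). Slfn9, a schlafen family gene, measured 1.01, 0.807 and 0.857 CPM in the sham livers and 37.1, 60.6 and 26.9 CPM after hepatectomy (log2 change 5.54, SE 0.35, adjusted p = 2.22e-05). Of the 15 largest falls, Cyp46a1, a cholesterol 24-hydroxylase known from brain, measured 329.8, 342 and 372 CPM in the sham livers and 39.7, 25.6 and 39.2 CPM after hepatectomy (log2 change -3.32, SE 0.18, adjusted p = 1.01e-05). Adgrv1, an adhesion G protein-coupled receptor, measured 77.5, 73.6 and 75.9 CPM in the sham livers and 7.20, 4.13 and 12.1 CPM after hepatectomy (log2 change -3.27, SE 0.33, adjusted p = 0.000265), and Cib3, a calcium-binding protein, fell by 3.49. For these 5 genes the groups lay wide apart.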

How the data were processed

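RNA of whole liver was sequenced as poly(A)-selected, strand-marking libraries, per the labels' protocols. The deposited values are whole-number read counts per gene, 1 table for all 26 libraries with 47643 genes and 5 lines of unassigned reads, which were left out of library sizes and tests. Those lines held 26.9% to 27.8% of reads in the 6 libraries used. The submitters' processing notes name bcl2fastq 2.17.1.14, Trimmomatic, STAR 2.4.2a, Picard 1.119, HTSeq and the build GRCm38 (mm10), with no role or order; whether the counting used strand is not given in the sources used here. The table's identifiers were matched to symbols for 47224 genes.

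From the counts of the 6 libraries, 13753 genes that passed filterByExpr were tested with edgeR 4.0.16 (R 4.3.3): TMM scaling, the quasi-likelihood F test, and Benjamini-Hochberg adjustment over all tested genes. A gene was called at an adjusted p under 0.05, and "rose" and "fell" are used only of such genes. Between 3 sham and 3 hepatectomy libraries, the exact permutation test of a single value cannot go below p = 0.1. A count of 0 allows up to 3 reads, which is 0.0846 to 0.0959 CPM, for counting error only. In data simulated from this comparison over 13595 genes, 171 of 192 with a true log2 change of 1.5 were called, as were 16 of 13403 with none. The simulation held far fewer changed genes than the 30.7% called in the real data, and no smaller change. It therefore does not show how often smaller changes are found. Alternatives were DESeq2 1.42.0, other scalings and filters, all 26 libraries in 1 fit, a replicate block, and leaving out each library in turn.

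The gene lists were chosen with earlier results of these data known, and 3 of them after the values were seen. Named genes are, in each list, up to 4 called genes per direction with the largest log2 change (2 where under 5 were called), no overlap between groups and a log2 CPM of 0 or more on average. To these were added the 15 largest rises and falls outside the cell cycle, histone and chromatin lists and a set of standard genes named whatever they did. Some genes that the rule names are not reported here, though they stayed in the fit and the list counts. A further 32 called genes outside this rule, and uncalled genes such as Hmgcs1, Jun, Sox9 and Axin2, were chosen after their values were seen. Promoters come from RefSeq on GRCm38.p6.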

Additional observations from a re-analysis of the deposited data

Results flagged for a closer look

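Reads that fell in more than 1 gene were no part of the comparisons, and their share differed between the groups. They made up 4.63% ± 0.208 (SD, n = 3) of reads in genes after PHx, with a range of 4.43% to 4.85%, and 3.71% to 3.85% in the sham livers. The groups did not overlap, and the exact two-sided permutation test gave p = 0.1, the smallest that 3 against 3 allows. Which genes held these reads was not tested.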

How the results depend on the processing

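With 3 libraries a group, the number of calls depended on single sham libraries. Leaving out 1 library gave 2554 to 4217 changed genes, 1443 to 2189 raised, 1111 to 2028 lowered and 2299 to 3951 outside the cell cycle list. The lowest counts came without sham 2, and without sham 3 the counts were 2575, 1462, 1113 and 2318. Sham 2 and sham 3 were closer to each other (correlation of log CPM 0.9922) than to sham 1 (0.9894 for sham 2 and 0.9878 for sham 3). Leaving out sham 2 or sham 3 thus kept the more distant sham 1 in a smaller group. Among the hepatectomy libraries the correlations were 0.9809 to 0.9875. Why the counts fell was not tested. An added minimum of 1 for the absolute log2 change left 1389 changed genes (995 raised, 394 lowered), 1150 of them outside the cell cycle list. DESeq2 shared 4062 of the 4225 calls. Replicate numbers are shared only through the titles, and same-numbered libraries had correlations of -0.08, 0.07 and -0.0014 of their deviations, so they were not taken as pairs; with a replicate block 3664 genes were called, 3512 of them shared with the fit without it.

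The rule for named genes, without those not reported here, picked 287 genes, of which the text describes a part. Of the 287, 266 were called, 189 of these kept the call in all 6 fits that left out 1 library, and no called gene changed direction. Those of the 287 that changed direction were all uncalled: Cd36 was at 0.0019 with a replicate block and at 0.028 with upper-quartile scaling. Leaving out 1 library gave ranges of -0.15 to 0.091 for Cd36, -0.0015 to 0.12 for Apob, -0.072 to 0.23 for Cd68, -0.51 to 0.20 for Ddit3, -0.025 to 0.25 for Nqo1 and -0.39 to 0.032 for Srebf1.

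List medians moved by more than their spread in 8 lists. With upper-quartile scaling the median was -0.44 for amino acid breakdown and -0.033 for iron and heme. With DESeq2 it was -0.20 for lipid droplets and 3.57 for the cell cycle, and with all 26 libraries -0.24 for lipid droplets. Leaving out 1 library gave -0.50 to -0.44 for amino acid breakdown, -0.31 to -0.14 for apolipoproteins, 3.68 to 4.03 for the cell cycle, 0.81 to 0.99 for chromatin, -0.19 to -0.085 for iron and heme, 0.18 to 0.30 for unfolded protein and amino acid stress, and -0.025 to 0.19 for pericentral genes, which turned negative without sham 1. The cause was not tested.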

Other observations

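A further 3 groups were put together after the values had been seen, so their counts are descriptions only. Of 37 tested genes for entry into the secretory pathway, which move new proteins into the endoplasmic reticulum, 22 rose (11 without sham 2, 12 without sham 3) and 1 fell (median log2 change 0.32). Of 20 known targets of FoxO factors and fasting, 12 fell and the other 8 did not pass the test (median -0.83); several of them, such as Igfbp1, G6pc and Pck1, also stand in lists described above. Of 15 known glucocorticoid targets 6 fell (10 without hepatectomy 1) and 1 rose (median -0.53).

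Nrf2 targets, genes of the defence against oxidants, rose in 6 of 24 cases (3 without sham 2 or sham 3) and fell in 3. Nqo1, a standard target of that factor, did not pass the test, at 3.82, 3.26 and 4.76 CPM in the sham livers and 4.08, 3.69 and 4.89 CPM after hepatectomy (log2 change 0.10, SE 0.20, adjusted p = 0.742).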
